A study of Mus musculus with 40 samples.

Results

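Tet1, Tet2, Tet3 and Tdg encode the enzymes of active DNA demethylation in the mouse, and they were picked by gene symbol, as 4 of the 55276 genes of the genotype and time course tables and 4 of the 55291 genes of the Pramel7 table. All 4 passed the filter on low counts in each table, where 21193 genes were tested in the genotype table, 20161 in the Pramel7 table and 20612 in the time course. RNA was sequenced in 34 libraries of E14tg2a, a line of mouse embryonic stem cells grown in serum medium with leukaemia inhibitory factor. The series asks how loss of CtBP, a corepressor of transcription encoded by Ctbp1 and Ctbp2, moves these cells toward the state of the early embryo, in which the transcription factor gene Dux is active. Each group has 2 libraries unless another number is given. In the genotype table the groups are WT, which is unmodified, CtbpDKO, without Ctbp1 and Ctbp2, DuxKO, without Dux, and Ctbp_DuxTKO, without all of these. Dppa2KO lacks Dppa2, and DKO_Dppa2_KO lacks it along with both Ctbp genes. In the Pramel7 table there are 4 WT libraries, numbered 3 to 6, next to DuxKO, P7OE, which overexpresses Pramel7, DuxKO_P7OE, which does so without Dux, and P7KO, without Pramel7. The time course is CtbpDKO throughout, sampled on days 0, 3, 9, 12 and 18, and its labels read Dox, with no word on dose or timing. The labels do not say whether a line is 1 clone or what drives Pramel7, nor whether replicates are separate cultures, so p-values measure only the spread between these libraries, which may be technical.

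TET proteins oxidise methylated cytosine in DNA, using iron and alpha-ketoglutarate, first to hydroxymethylcytosine and then to formylcytosine and carboxylcytosine. TDG, thymine DNA glycosylase, cuts out formylcytosine and carboxylcytosine, and base excision repair puts an unmodified cytosine in their place. In embryonic stem cells TET1 and TET2 are the main enzymes of this route, whereas TET3 is best known from the egg, where it oxidises the paternal genome after fertilisation.

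A start region each of Tet1 and Tet2 is shown because both genes fell in DuxKO of the genotype table. The 250 bases before a RefSeq transcript start (assembly GRCm38.p6, which is mm10) lie at chr10:62887325-62887574 for Tet1 and at chr3:133544391-133544640 for Tet2, both on the minus strand, and capitals mark CpG, the dinucleotide that is methylated.
Tet1: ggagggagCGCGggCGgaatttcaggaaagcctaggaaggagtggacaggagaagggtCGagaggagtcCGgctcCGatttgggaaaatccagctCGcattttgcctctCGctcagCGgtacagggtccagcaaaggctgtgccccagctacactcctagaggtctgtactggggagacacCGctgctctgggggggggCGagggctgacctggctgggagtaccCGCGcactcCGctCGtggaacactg
Tet2: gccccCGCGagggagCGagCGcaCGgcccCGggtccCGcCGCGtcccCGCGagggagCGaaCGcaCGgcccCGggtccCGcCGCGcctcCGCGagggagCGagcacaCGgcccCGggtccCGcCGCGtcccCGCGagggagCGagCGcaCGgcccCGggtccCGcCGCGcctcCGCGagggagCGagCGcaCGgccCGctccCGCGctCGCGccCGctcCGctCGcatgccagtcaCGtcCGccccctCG
The Tet2 window holds 51 CpG, a number that 0.067% of the 32851 mouse starts in the RefSeq table reach, and 83.6% of its bases are G or C. The Tet1 window holds 15 CpG, which 27.3% of starts reach, against a median of 6 over all starts. The windows of Tet3 (chr6:83441679-83441928, minus strand) and Tdg (chr10:82629588-82629837, plus strand) hold 17 and 19 CpG. Motifs were searched on both strands of the same windows. The GC box GGGCGG was found once each for Tet1, Tet2 and Tet3 and 0 times for Tdg, and 32.7% of all starts hold it. Tdg alone of the 4 has the E-box CACGTG and the cAMP response element TGACGTCA, each at 1 place, which 6.02% and 1.55% of all starts hold. The CCAAT box was found at 1 place each for Tet3 and Tdg (33.9% of starts). The letters TGATT, a part of the Dux recognition sequence, were found in 0 of the 4 windows and are held by 33.7% of starts. A match is a match of letters only, and its absence says nothing of the factor.

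The genes themselves lie at chr10:62804570-62887469 (Tet1), chr3:133463677-133545136 (Tet2), chr6:83362373-83457208 (Tet3) and chr10:82629814-82650799 (Tdg). The windows of Tet2 and Tet3 lie wholly inside these spans and those of Tet1 and Tdg in part. Each window thus precedes a transcript start inside its gene, and other starts of the gene were not searched. Levels are CPM, counts of a gene scaled to a common library size, with library sizes adjusted by the trimmed mean of M values (TMM). Transcript lengths were not used, so a level of 1 gene is compared between libraries and not with the level of another gene. Library totals lay between 19944644 and 36025046 counts (genotype), 10123058 and 30135341 (Pramel7) and 16674526 and 30169626 (time course). Tet3 was the least counted member, with 202 to 850 counts per library, while Tet1 had 4152 to 18740.

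The libraries were first checked against their labels. Ctbp1 had 0 to 4 counts in every library labelled as lacking it, against 1911 and 2109 in WT of the genotype table. Ctbp2 RNA remained, at 43.6 and 43.8 CPM in CtbpDKO, 39.97 and 40.3 CPM in Ctbp_DuxTKO and 36.5 and 36.95 CPM in DKO_Dppa2_KO, against 211.1 and 214.9 CPM in WT. RNA does not show whether these Ctbp2 transcripts are intact. Duxf3, the row that holds Dux, had 40 and 24 counts in CtbpDKO and 0 in each DuxKO, Ctbp_DuxTKO, Dppa2KO and DKO_Dppa2_KO library, but only 1 and 0 in WT, so the DuxKO label could not be checked by RNA. Dppa2 stayed at 33.3 and 29.1 CPM in Dppa2KO against 57.3 and 60.9 CPM in WT. The title of the DKO_Dppa2_KO pair names Dppa2 and Dux, while its description names the Ctbp knockout and Dppa2. The description was used here, its Ctbp1 counts were 4 and 0, and absence of Dux from this line as well cannot be told apart. All 8 embryonic stem cell markers were detected in every library, with a summed level of 1886 to 3764 CPM. The 6 fibroblast markers summed to 2.3 to 22.8 CPM. In bulk RNA, fewer cells of a type and less RNA per cell cannot be told apart.

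Across the 6 genotypes each member differed among groups, in an F test of all groups at once (edgeR quasi-likelihood, Benjamini-Hochberg adjusted). The adjusted p was 7.08e-05 for Tet1, 0.000399 for Tet2, 5.78e-05 for Tet3 and 0.000461 for Tdg. All 4 members were thus called, in a table where 59.3% of genes were called by this test. The ratio of the highest to the lowest group mean was 2.25 for Tet1, 1.53 for Tet2, 2.29 for Tet3 and 1.49 for Tdg. The same 2 groups, Ctbp_DuxTKO and DuxKO, were highest and lowest for Tet1 and for Tet2, whereas for Tet3 and Tdg the lowest group was DKO_Dppa2_KO.

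**Figure D1:**
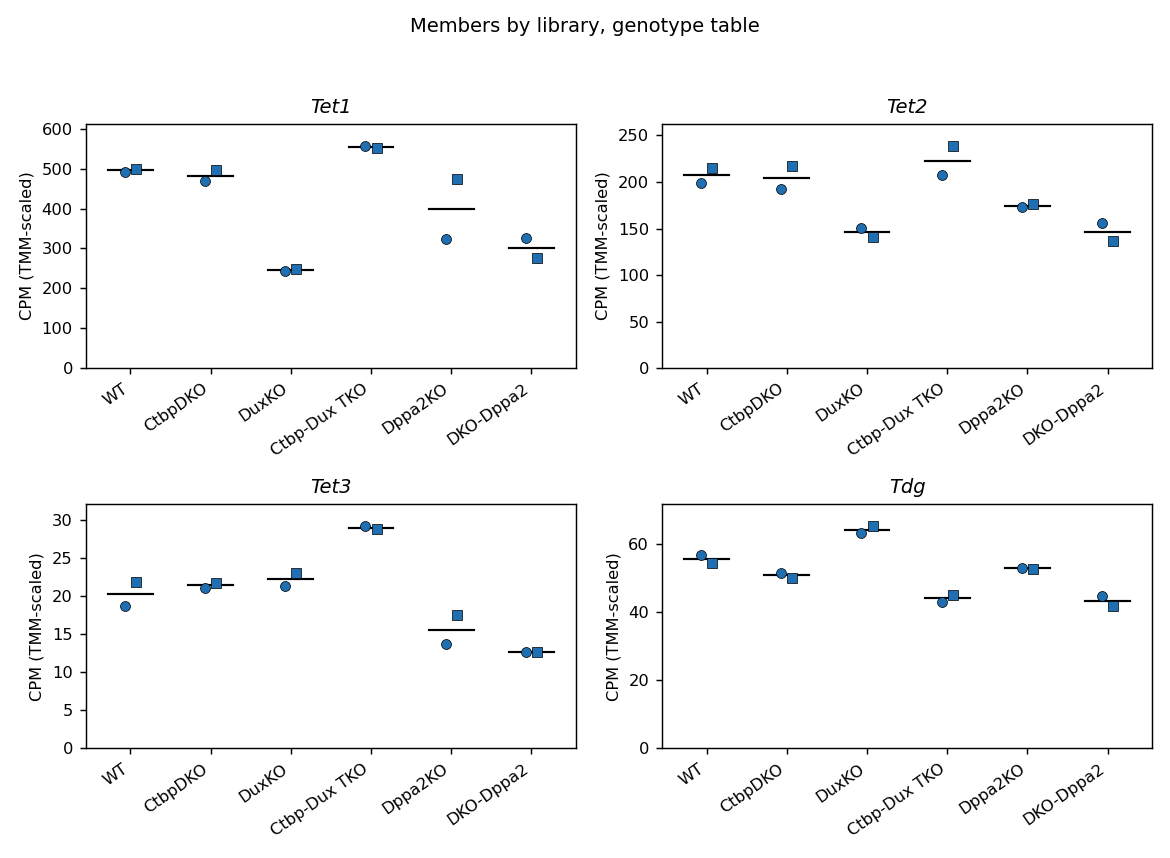
Level of each member (y axis, CPM, from 0) in the 12 libraries of the genotype table, with 1 point per library (symbols tell the replicates of a group apart) and a horizontal line at the group mean. Tet1 and Tet2 were low in DuxKO and in DKO_Dppa2_KO (drawn as DKO_Dppa2), and the Dppa2KO libraries lay apart for Tet1 (323.5 and 475 CPM).

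Loss of both Ctbp genes alone left the 4 members near WT. Tet1 was at 491.3 and 499.7 CPM in WT and at 468.4 and 495.4 CPM in CtbpDKO, and the groups overlapped. Its log2 fold change was −0.04, with a 95% confidence interval from −0.34 to 0.26. Tet2 changed by −0.02 (interval −0.24 to 0.20) and Tet3 by 0.08 (−0.19 to 0.35). Tdg was at 56.5 and 54.4 CPM in WT and at 51.4 and 49.9 CPM in CtbpDKO, and its value of −0.13 (−0.31 to 0.05) had an edgeR adjusted p of 0.291. Of the 4 members 0 were called by edgeR, 0 had an unadjusted p under 0.05 and 0 were called by DESeq2, while 26.1% of all genes were called. The intervals leave room for changes of up to 0.35 on the log2 scale.

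Around the members, other genes of DNA methylation were called in CtbpDKO, where 26.1% of all genes were called. Of 5 genes that write or maintain methylation, 4 rose and 0 fell, with a list median of 1.08 against 0.01 over all genes. Dnmt3b, Dnmt3l and Dnmt3a, which make or assist new methylation, rose by 1.67, 1.597 and 1.08. Of the 13 base excision and repair genes 4 rose and 1 fell (median 0.14). Gadd45b, a stress-induced gene tied to demethylation, rose by 1.02, the glycosylase gene Smug1 by 0.80 and Parp1 by 0.43, while the scaffold gene Xrcc1 fell by 0.47. Of 12 genes for partners and regulators of TET, 1 rose and 3 fell (median −0.04). Capn1, a calpain that can cleave TET proteins, rose by 1.55. Prdm14, Zfp281 and Cxxc5, which bind DNA or chromatin beside TET, fell by 0.70, 0.57 and 0.41. Of 14 genes that supply alpha-ketoglutarate or ascorbate, 2 rose and 1 fell (median 0.05), with Slc23a2, an ascorbate transporter, up by 0.62, Glud1 up by 0.50 and Idh2 down by 0.75. In the same libraries the 9 markers of the 2-cell-like state summed to 40.8 and 49.5 CPM against 0.72 and 1.01 CPM in WT. Their part in these changes was not tested.

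In the genotype table Tet1 and Tet2 were lower in DuxKO than in WT, which the Pramel7 table, described further on, did not show for Tet2 and showed for Tet1 only with some WT libraries. Tet1 was at 243.5 and 248.8 CPM in DuxKO, which is 49.7% of WT, and the groups did not overlap. Its log2 fold change was −1.01 (SE 0.14, edgeR adjusted p 0.000302). Tet2 was at 150.4 and 141.2 CPM in DuxKO against 199.4 and 214.6 CPM in WT. Its fold change of −0.51 (SE 0.10, edgeR adjusted p 0.00408) put it at 70.4% of WT. Both calls held in all 13 alternatives, with Tet1 between −1.05 and −0.99 and Tet2 between −0.55 and −0.44. Tet3, at 21.4 and 23.1 CPM against 18.8 and 21.8 CPM, changed by 0.13 (interval −0.14 to 0.40). Tdg was higher in both DuxKO libraries, 63.1 and 65.0 CPM, but its 0.21 did not pass the test (edgeR adjusted p 0.106). Thus 0 members rose and 2 fell, where 17.5% of all genes were called.

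The fitted changes of Tet1 and Tet2 were not tested against each other, and their ratio within each library is given as a description. The number of Tet1 counts per Tet2 count, which depends on no scaling between libraries, was 2.46 and 2.33 in WT and 1.62 and 1.76 in DuxKO. That ratio stood at 2.44 and 2.29 in CtbpDKO and at 2.69 and 2.31 in Ctbp_DuxTKO, and at 2.10 and 2.03 in DKO_Dppa2_KO. So the ratio was lower in DuxKO than in these other genotypes. It was also lower in replicate 1 of Dppa2KO, 1.87, than in replicate 2, 2.70.

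Among the repair genes 5 rose and 0 fell in DuxKO (median 0.30, against −0.01 over all genes), where 17.5% of all genes were called. Neil3 and Neil1, glycosylases of oxidised bases, rose by 0.90 and 0.63, and the abasic site nuclease gene Apex1 rose by 0.43. Of the partners and regulators 1 rose and 1 fell. Cxxc5 rose by 0.70, and Nanog, a pluripotency factor whose protein binds TET1 and TET2, fell by 0.43. Of the supply genes 2 rose and 2 fell. Slc23a1, an ascorbate transporter gene, fell by 1.32 and Idh2 by 0.53, while Fh1 rose by 0.42 and Ogdh by 0.26. Of the methylation writers 0 rose and 2 fell, Dnmt3l by 1.55 and Dnmt3b by 0.69. The stem cell markers summed to 2167 to 2206 CPM in DuxKO and 2858 to 2861 CPM in WT, and the 6 primitive endoderm markers to 7.38 to 7.86 CPM against 27.3 to 31.9 CPM, each detected in every library. The part of either shift in the fall of Tet1 and Tet2 was not tested.

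When the Ctbp genes were removed as well as Dux, Tet1 and Tet2 stood higher than in DuxKO. Tet1 was at 556.3 and 550.9 CPM in Ctbp_DuxTKO, the highest pair of the table. Against DuxKO it was higher by 1.17 on the log2 scale (SE 0.14, edgeR adjusted p 2.39e-05). Tet2 was at 207.1 and 238.5 CPM, a difference of 0.61 (SE 0.10, edgeR adjusted p 0.000353). Tet3 was at 29.2 and 28.9 CPM and differed by 0.38 (edgeR adjusted p 0.0252). Tdg went the other way, at 42.9 and 45.0 CPM in Ctbp_DuxTKO, which is 68.6% of DuxKO (log2 −0.54, SE 0.08, edgeR adjusted p 0.000195). The groups did not overlap for any member. The share of all genes that separated so was not counted, so this only describes the libraries. Of the members 3 rose and 1 fell, and 41% of all genes were called in this comparison. The call of Tet3 was lost in 5 of 13 alternatives, among them each of the 4 fits that left out a library (adjusted p up to 0.159). The other calls held in all 13.

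The effect of Ctbp loss on 3 members differed with Dux, as tested by the interaction of both losses. Ctbp loss changed Tet1 by −0.04 with Dux and by 1.17 without it, a difference of 1.21 (SE 0.20, edgeR adjusted p 0.00108). For Tet2 the effects were −0.02 and 0.61, and the difference was 0.63 (SE 0.14, edgeR adjusted p 0.00844). For Tdg they were −0.13 and −0.54, a difference of −0.41 (SE 0.12, edgeR adjusted p 0.0267). The Tet3 difference of 0.30 (interval −0.08 to 0.68) was not called. That is 2 members higher and 1 lower, in a comparison that called 19.5% of all genes. The Tet1 call held in all 17 alternatives and the Tet2 call in 16, with an adjusted p of 0.0737 on total counts without scaling factors. The Tdg call was lost in 8 of 17, with adjusted p up to 0.178.

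Set against CtbpDKO, which has Dux, the triple knockout differed less. Tet3 was at 21.2 and 21.8 CPM in CtbpDKO and was higher by 0.43 without Dux (SE 0.12, edgeR adjusted p 0.0487). Tet1 differed by 0.20 (interval −0.10 to 0.50), Tet2 by 0.12 (−0.09 to 0.34) and Tdg by −0.20 (−0.39 to −0.02, edgeR adjusted p 0.163). So 1 member rose and 0 fell, where 8.15% of genes were called. The Tet3 call was lost in 6 of 13 alternatives, including every fit without 1 of the 4 libraries (adjusted p up to 0.221). The primitive endoderm markers summed to 131.2 to 133.7 CPM in Ctbp_DuxTKO against 37.8 to 39.8 CPM in CtbpDKO, and all 6 were detected. Among the 6, Dab2 reached 78.9 CPM in this table and the next highest, Gata4, 18.1 CPM, so the sums lean on Dab2. The part of these markers in the member values was not tested.

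Each list around the members held called genes between Ctbp_DuxTKO and DuxKO, where 41% of all genes were called. The writers had 4 higher and 0 lower (median 0.85, against 0.04 over all genes), with Dnmt3l higher by 3.55, Dnmt3b by 2.60 and Dnmt3a by 0.85. The repair genes had 2 higher and 5 lower (median −0.39). Gadd45b was higher by 0.89 and Smug1 by 0.32, and Neil3, Gadd45a and Apex1 were lower, at −1.03, −0.72 and −0.68. The partners had 4 higher and 2 lower, Capn1 at 1.31, Sall4 at 0.60 and Lin28a at 0.37 against Cxxc5 at −1.65 and Zfp281 at −0.37. The supply genes had 3 higher and 7 lower (median −0.27), led by Slc23a1 at 1.92 and by Idh2 at −0.94.

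Loss of Dppa2, a chromatin factor of pluripotent cells that acts upstream of Dux, gave no called member by itself. Tet1 was at 323.5 CPM in replicate 1 and 475 CPM in replicate 2 of Dppa2KO, both below WT, and the fitted value was −0.31 (interval −0.61 to −0.01, edgeR adjusted p 0.151). Tet2, at 172.9 and 176.2 CPM, gave −0.25 (edgeR adjusted p 0.12). Tet3, at 13.7 and 17.5 CPM, gave −0.38 (edgeR adjusted p 0.0575), and Tdg gave −0.07. Every member was below WT in both libraries, Tdg narrowly, at 52.96 and 52.58 CPM against 56.53 and 54.38 CPM in WT. The share of all genes that separated so was not counted, so these positions do not show a fall shared by the members. Of the 4 members 0 were called by edgeR and 0 by DESeq2, although 3 had an unadjusted p under 0.05, and 16.4% of all genes were called. Without Dppa2KO replicate 2, Tet1 (−0.61, adjusted p 0.00507) and Tet3 (−0.56, adjusted p 0.0212) passed. Tet3 also passed with upper quartile factors (−0.41, adjusted p 0.0442) and with the stricter count filter (−0.41, adjusted p 0.0381), and Tet1 with no filter (−0.31, adjusted p 0.0203). Of the repair genes 3 rose and 0 fell, Neil1 by 0.92, Mbd4 by 0.79 and Apex1 by 0.50, and of the supply genes 5 rose and 0 fell, led by D2hgdh (0.60), Idh1 (0.58) and Glud1 (0.42). The partners had 1 higher and 1 lower, Nanog at 0.30 and Lin28a at −0.43, and the writers 1 higher and 1 lower, Dnmt3a at 0.30 and Dnmt3b at −0.46.

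In cells without Ctbp, the further loss of Dppa2 went with lower RNA of all 3 Tet genes. Tet1 was at 326.6 and 276.7 CPM in DKO_Dppa2_KO, 62.6% of CtbpDKO (log2 −0.68, SE 0.14, edgeR adjusted p 0.0063). Tet2 was at 155.5 and 136.1 CPM, 71.3% of CtbpDKO (−0.49, SE 0.10, edgeR adjusted p 0.00645). Tet3 was at 12.7 CPM in both libraries, 59.0% of CtbpDKO (−0.76, SE 0.13, edgeR adjusted p 0.00182). Tdg, at 44.6 and 41.7 CPM, gave −0.23 (edgeR adjusted p 0.0823). The libraries of the groups did not overlap for any of the 4. The share of all genes that separated so was not counted, so this too is only a description. Thus 0 members rose and 3 fell, where 15.4% of all genes were called. The Tet3 call held in all 13 alternatives. Tet1 and Tet2 were lost without DKO_Dppa2_KO replicate 2 (adjusted p 0.0712 and 0.0794), and Tet2 also without CtbpDKO replicate 2 (0.07). The primitive endoderm markers summed to 10.1 to 11.2 CPM in DKO_Dppa2_KO against 37.8 to 39.8 CPM in CtbpDKO, the 2-cell-like markers to 0 in both libraries against 40.8 to 49.5 CPM, and the 6 trophoblast markers to 46.3 to 46.9 CPM against 30.1 to 30.4 CPM. The part of these shifts in the fall of the Tet genes was not tested.

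The interaction of Ctbp loss with Dppa2 loss called 0 of the 4 members, with 0 at an unadjusted p under 0.05 and 0 by DESeq2, and 8.23% of all genes. Its values were −0.36 for Tet1, −0.24 for Tet2, −0.39 for Tet3 and −0.16 for Tdg, so the fall in the absence of Ctbp was not shown to exceed that in its presence. The Tet1 interval ran from −0.79 to 0.06 and the Tet3 interval from −0.77 to 0.00. Without Dppa2KO replicate 1 the Tet1 value was −0.62 and was called (adjusted p 0.0229). Set against Dppa2KO, DKO_Dppa2_KO had 0 members higher and 2 lower, in a comparison that called 30.4% of genes. These were Tdg (−0.29, SE 0.08, edgeR adjusted p 0.0186) and Tet1 (−0.40, SE 0.14, edgeR adjusted p 0.043). The Tet1 libraries overlapped, since 326.6 CPM in DKO_Dppa2_KO exceeded 323.5 CPM in Dppa2KO, and without Dppa2KO replicate 2 the value was −0.10 (adjusted p 0.559). The Tet1 call was lost in 6 and the Tdg call in 5 of 13 alternatives, the replicate block (−0.39, adjusted p 0.0582) among those of Tet1.

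Of the writers, 1 rose and 4 fell in DKO_Dppa2_KO against CtbpDKO (median −0.34, against −0.03 over all genes), where 15.4% of all genes were called. Dnmt3l rose by 0.90, whereas Dnmt3a fell by 0.70, Dnmt1, the maintenance enzyme, by 0.68 and Uhrf1, its partner, by 0.34. Of the repair genes 0 rose and 1 fell, Parp1 by 0.50, while the list median was 0.28. Of the partners 0 rose and 2 fell, Hcfc1 by 0.40 and Capn1 by 0.30. Of the supply genes Idh3b rose by 0.38 and Idh2 fell by 0.60.

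**Figure D2:**
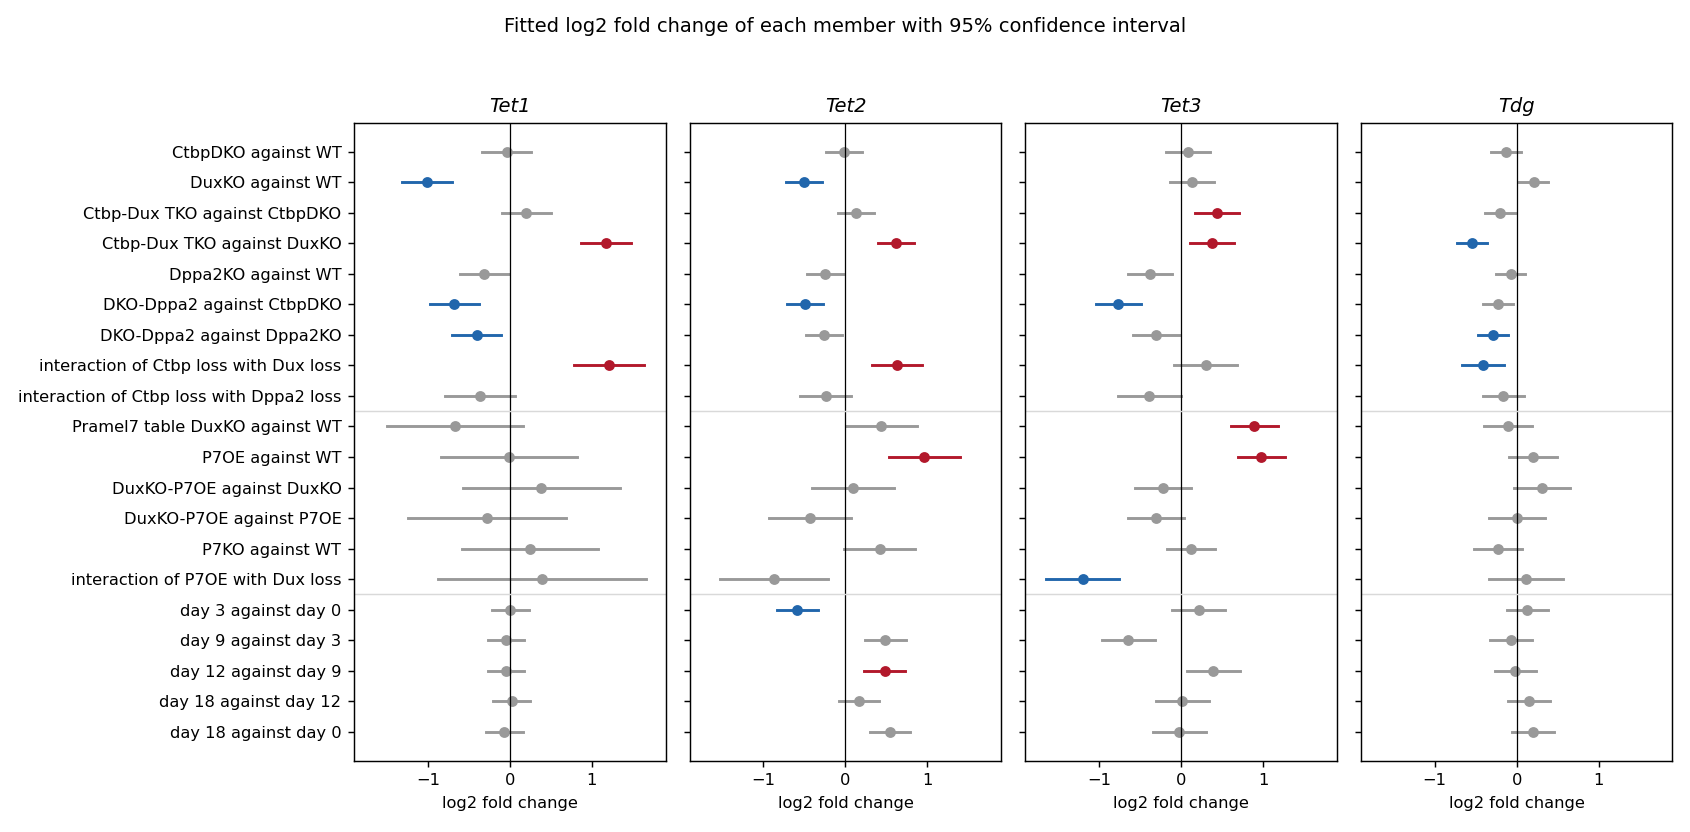
Fitted log2 fold change (x axis) of each member in the 20 comparisons (y axis), with points for the estimate and lines for the 95% confidence interval. Red marks genes called higher, blue genes called lower and grey those not called, at an adjusted p of 0.05, and lines divide the genotype, Pramel7 and time course tables. Tet1 is called in 5 comparisons of the genotype table, while Tet1 intervals are wide in the Pramel7 table.

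The time course followed CtbpDKO cells while Ctbp2 RNA went up and down. Ctbp2 was at 58.9 and 59.3 CPM on day 0, 543.7 and 572.6 CPM on day 3, 309.8 and 295.6 CPM on day 9, 49.4 and 44.7 CPM on day 12 and 52.4 and 54.7 CPM on day 18. Ctbp1 had at most 4 counts throughout. Tet2 was the member that differed among days (edgeR adjusted p 0.000168), and Tet1, Tet3 and Tdg were not called (adjusted p 0.906, 0.0826 and 0.677). By this test 12.3% of all genes were called, and 1 of 4 members.

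Tet2 was lowest on day 3, the day of the highest Ctbp2, and near its day 0 level on day 9, when Ctbp2 was still high. It was at 177.8 and 177.4 CPM on day 0 and at 114.2 and 122.5 CPM on day 3. That is 66.7% of day 0, a fall of 0.59 on the log2 scale (SE 0.12, edgeR adjusted p 0.00978). On day 9 it was at 172.0 and 160.0 CPM, on day 12 at 220.6 and 241.4 CPM and on day 18 at 282.4 and 235.5 CPM. The lowest libraries were thus those of day 3 and the highest those of days 12 and 18, which overlapped each other. Day 9 against day 3 gave 0.49 (edgeR adjusted p 0.0635), and day 12 against day 9 gave 0.48 (SE 0.11, edgeR adjusted p 0.0342). Day 18 against day 12 gave 0.16 (interval −0.08 to 0.41), and day 18 against day 0 gave 0.54 (interval 0.30 to 0.79, edgeR adjusted p 0.0557).

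**Figure D3:**
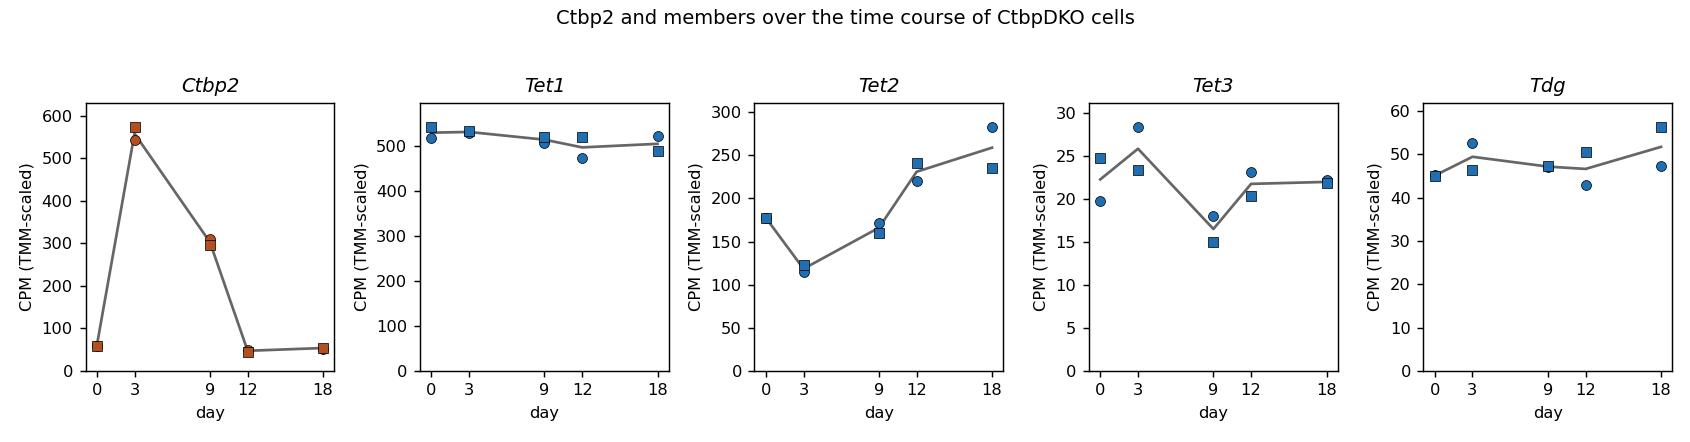
Level of Ctbp2 and of each member (y axes, CPM, from 0) against day (x axis) in CtbpDKO cells, with 1 point per library (symbols tell the replicates of a group apart) and a line through the day means. Ctbp2 peaks on day 3, the day on which Tet2 is lowest (114.2 and 122.5 CPM), while Tet1 stays between 472.6 and 540.5 CPM.

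Tet1 stayed between 472.6 and 540.5 CPM in the 10 libraries. Its day 3 value against day 0 was 0.00 on the log2 scale, with an interval from −0.22 to 0.23. The number of Tet1 counts per Tet2 count, free of scaling between libraries, was 2.91 and 3.05 on day 0, 4.63 and 4.34 on day 3, and 1.85 and 2.07 on day 18. Tet2 counts per Tdg count ran the other way, at 3.94 and 3.94 on day 0, 2.17 and 2.65 on day 3, and 5.98 and 4.19 on day 18. Tet2 is the lower term of the first ratio and the upper term of this one, so both show the same Tet2 change. Tet3 was at 19.8 and 24.8 CPM on day 0, 28.4 and 23.4 CPM on day 3 and 18.04 and 15.01 CPM on day 9. Its value from day 3 to day 9, −0.65, did not pass (SE 0.15, edgeR adjusted p 0.0604). Tdg lay between 42.8 and 56.2 CPM on all days.

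In counts, day 3 against day 0 had 0 members higher and 1 lower, where 4.99% of all genes were called. Day 12 against day 9 had 1 higher and 0 lower (3.84%). Day 9 against day 3 called 0 members by edgeR, with 2 at an unadjusted p under 0.05 and 2, Tet2 and Tet3, by DESeq2 (1.12%). Day 18 against day 12 called 0, with 0 at an unadjusted p under 0.05 and 0 by DESeq2 (0.82%). Day 18 against day 0 called 0 by edgeR, with 1 at an unadjusted p under 0.05 and 1, Tet2, by DESeq2 (0.514%). The day 3 call of Tet2 held in 12 of 13 alternatives, and without day 3 replicate 1 it was −0.54 with an adjusted p of 0.112. The day 12 call was lost in 6 of 13, among them the replicate block (0.48, adjusted p 0.0584) and each fit without 1 library. The comparisons of neighbouring days share libraries, so a low day 3 enters 2 of them.

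Some genes of the lists changed more than Tet2 over these days, and the shares of all genes called are those given above. Of the partners 0 rose and 2 fell on day 3 (median −0.01), Prdm14 by 1.18 and Nanog by 0.61, and Prdm14 rose by 0.86 from day 3 to day 9. The repair and supply lists had medians of −0.05 and −0.0043 on day 3, against −0.0027 over all genes. Of the writers Dnmt3a rose by 1.81 and Dnmt3b fell by 0.54 on day 3, and from day 9 to day 12 Dnmt3a fell by 2.06 and Dnmt3b rose by 0.88. From day 3 to day 9 Dnmt3l fell by 0.91 and Dnmt3b by 0.61, and Dnmt3l rose by 0.66 from day 12 to day 18. The 2-cell-like markers summed to 44.6 to 58.4 CPM on day 0, 38.1 to 54.7 CPM on day 3, 9.69 to 12.2 CPM on day 9, 8.90 to 12.2 CPM on day 12 and 35.5 to 45.3 CPM on day 18. The 4 formative and primed epiblast markers summed to 17.5 to 19.3 CPM on day 0, 32.7 to 35.5 CPM on day 3, 36.04 to 37.8 CPM on day 9, 28.2 to 28.8 CPM on day 12 and 19.9 to 21.98 CPM on day 18. The primitive endoderm markers summed to 17.1 to 21.0 CPM on day 0, 14.9 to 16.7 CPM on day 3, 17.98 to 18.5 CPM on day 9, 28.2 to 30.5 CPM on day 12 and 62.5 to 70.01 CPM on day 18. The epiblast markers were thus above day 0 on the day of the lowest Tet2, and the endoderm markers were highest on day 18, when Tet2 was high. Dab2 was again the highest endoderm marker, at up to 34.8 CPM in the time course, against 16.2 CPM for Gata4. The part of these marker lists in the Tet2 values was not tested.

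In the Pramel7 table the WT libraries themselves stood apart in Tet1. It was at 253.8 and 264.1 CPM in replicates 3 and 4 and at 645.0 and 852.5 CPM in replicates 5 and 6, a ratio of 2.89 between the pair means. Tet2 was at 86.0 and 83.9 CPM in the former and 150.6 and 126.6 CPM in the latter, a ratio of 1.63. Tet3 was between 12.98 and 13.4 CPM in all 4 (ratio 1.00). Tdg was at 37.7, 36.2, 35.7 and 48.8 CPM in replicates 3 to 6. The labels do not say which WT pair belongs with which line, except that DuxKO of this table carries numbers 3 and 4. The values of the members against WT are therefore given with all 4 libraries and with each pair, and those of the gene lists with all 4 only. In the joint test Tet1 (edgeR adjusted p 0.438) and Tdg (0.126) were not called, while Tet2 (0.0185) and Tet3 (0.000243) were. That is 2 of 4 members, where 39% of all genes were called.

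**Figure D4:**
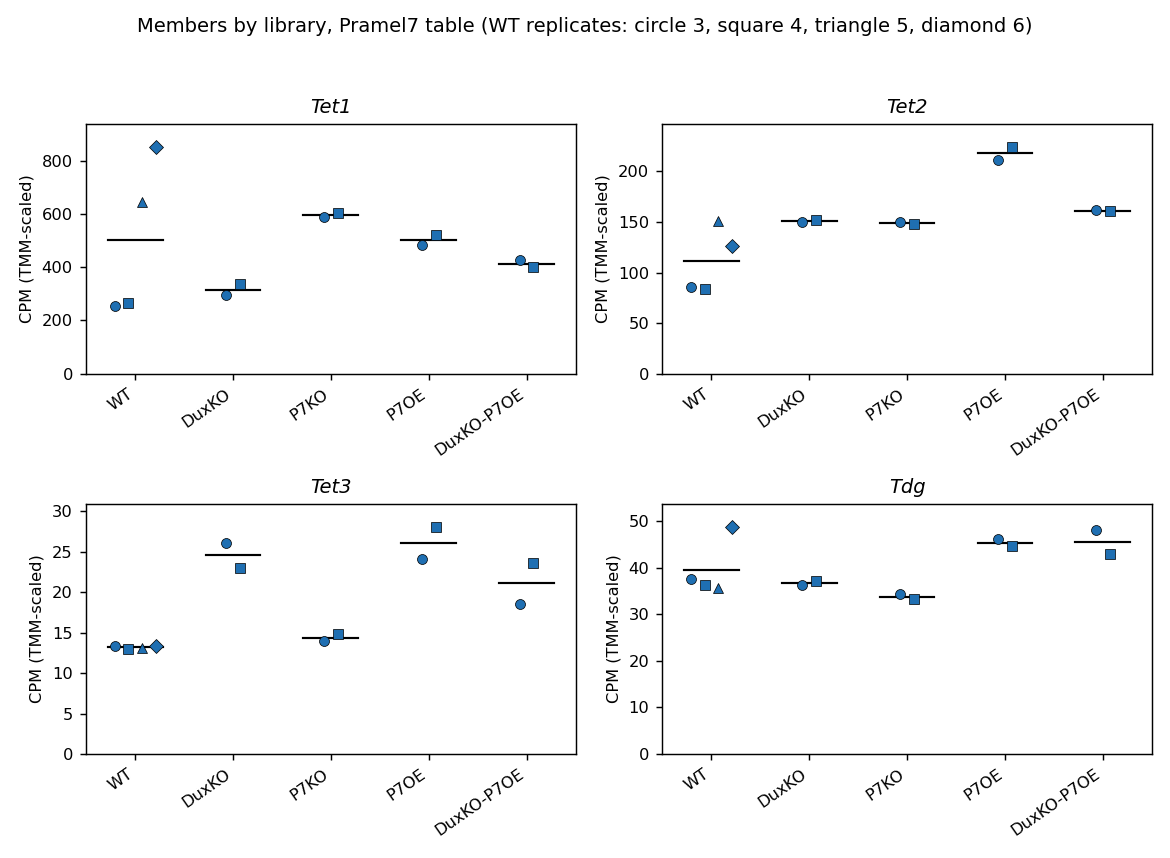
Level of each member (y axis, CPM, from 0) in the 12 libraries of the Pramel7 table, with 1 point per library (symbols tell the replicates of a group apart) and a horizontal line at the group mean. Tet1 splits the WT libraries into 253.8 and 264.1 CPM against 645.0 and 852.5 CPM, while Tet3 is between 12.98 and 13.4 CPM in all 4.

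Overexpression of Pramel7, a gene of the early embryo whose protein is known to lower UHRF1, went with higher Tet2 and Tet3 than in WT of this table. Pramel7 had 435 and 431 counts in P7OE, 537 and 588 in DuxKO_P7OE and 2 to 4 in WT, which checks these labels. Scaled to library size, Pramel7 was at 14.04 and 26.23 CPM in P7OE and at 49.26 and 56.69 CPM in DuxKO_P7OE. Its level thus differed between the overexpressing groups, and between the P7OE libraries. P7KO had 0 and 3 counts, so with WT this low its label could not be checked. Tet2 was at 211.2 and 224.4 CPM in P7OE, above all 4 WT libraries, with a log2 fold change of 0.96 (SE 0.20, edgeR adjusted p 0.00425). Tet3 was at 24.0 and 28.1 CPM, 1.97 times WT (0.98, SE 0.13, edgeR adjusted p 0.00026). Both calls held in all 16 alternatives, Tet2 with 0.63 to 1.32 and Tet3 with 0.88 to 1.08. The low end for Tet2 came from WT replicates 5 and 6 alone, the high end from replicates 3 and 4 alone. Tet3 was 0.94 against replicates 3 and 4 and 0.96 against replicates 5 and 6. In DuxKO of this table, without the overexpression, Tet3 was also above WT, at 26.1 and 23.0 CPM. Tdg, at 46.1 and 44.6 CPM, gave 0.20 (interval −0.10 to 0.49), 0.26 with replicates 3 and 4 and 0.085 with replicates 5 and 6. So 2 members rose and 0 fell, where 19.9% of all genes were called.

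Tet1 in P7OE, at 482.0 and 521.1 CPM, lay between the WT pairs. Its value was −0.01 against all 4 WT libraries (interval −0.84 to 0.82), 0.91 against replicates 3 and 4 (edgeR adjusted p 3.58e-05) and −0.60 against replicates 5 and 6 (edgeR adjusted p 0.0125). Its direction thus depended on which WT pair was used. P7KO, at 588.0 and 603.2 CPM, likewise gave 0.24 against all 4, 1.17 against replicates 3 and 4 (edgeR adjusted p 5.28e-06) and −0.34 against replicates 5 and 6 (edgeR adjusted p 0.178). Tet2 in P7KO, at 149.7 and 148.3 CPM, gave 0.42 against all 4 (edgeR adjusted p 0.222) 0.78 against replicates 3 and 4 (edgeR adjusted p 4.02e-05) and 0.096 against replicates 5 and 6 (edgeR adjusted p 0.67). Tet3 in P7KO gave 0.12 against all 4, 0.096 against replicates 3 and 4 and 0.11 against replicates 5 and 6. Tdg gave −0.23, −0.16 and −0.33 in the same order. Against all 4 WT libraries 0 members were called in P7KO by edgeR, with 0 at an unadjusted p under 0.05 and 0 by DESeq2, while 9.48% of all genes were called.

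**Figure D5:**
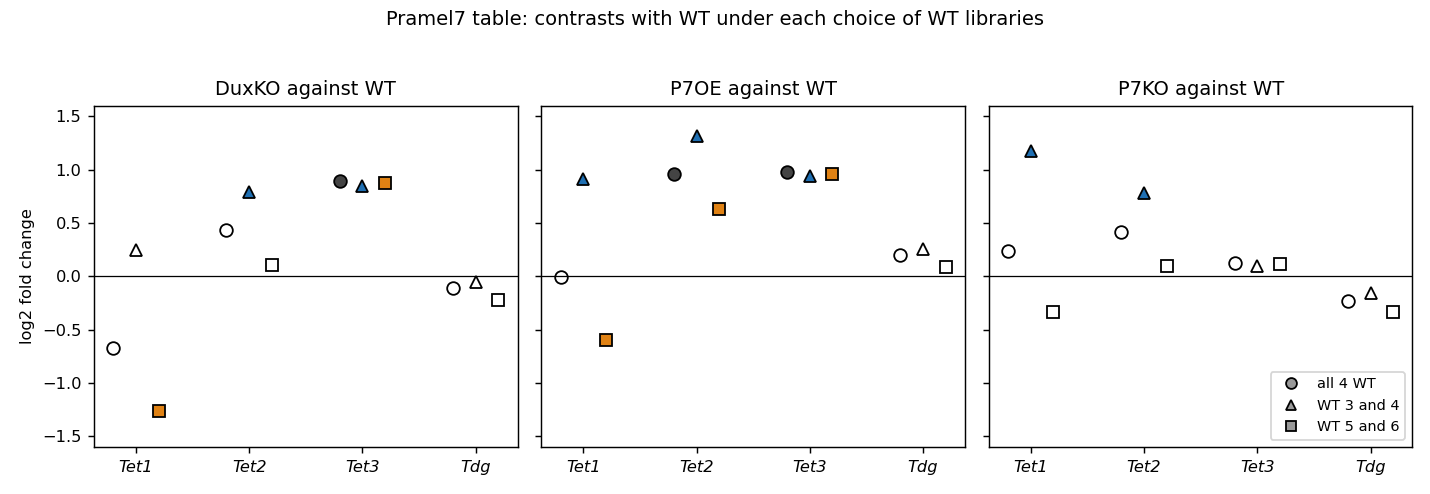
Log2 fold change (y axis) of each member (x axis) in DuxKO, P7OE and P7KO against WT of the Pramel7 table, fitted with all 4 WT libraries (circles), with replicates 3 and 4 (triangles) or with replicates 5 and 6 (squares). Filled symbols are called at an adjusted p of 0.05. Tet1 moves from 1.17 to −0.34 in P7KO with the choice of WT pair, whereas Tet3 keeps its place.

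DuxKO of the Pramel7 table gave other values than DuxKO of the genotype table. Tet3 was at 26.1 and 23.0 CPM, 1.86 times WT (0.89, SE 0.13, edgeR adjusted p 0.000534), and this call held in all 17 alternatives with values of 0.79 to 0.98, among them 0.85 with WT replicates 3 and 4 and 0.87 with replicates 5 and 6. In the genotype table its DuxKO value was 0.13. Tet1, at 294.2 and 338.0 CPM, gave −0.67 (interval −1.50 to 0.16, edgeR adjusted p 0.285) against all 4 WT libraries, 0.24 against replicates 3 and 4 and −1.26 against replicates 5 and 6 (edgeR adjusted p 0.000106). Tet2, at 150.1 and 152.4 CPM, gave 0.44 (edgeR adjusted p 0.159), 0.79 against WT replicates 3 and 4 (edgeR adjusted p 3.93e-05) and 0.11 against replicates 5 and 6 (edgeR adjusted p 0.565), where the genotype table gave −0.51. Tdg, at 36.3 and 37.2 CPM, gave −0.11 against all 4, −0.051 against replicates 3 and 4 and −0.22 against replicates 5 and 6. With the replicate number as a block, which uses the WT libraries that share numbers 3 and 4 with DuxKO, Tet2 was called (0.80, adjusted p 0.000225) and Tet1 was 0.26 (adjusted p 0.0508). Here 1 member rose and 0 fell, where 16.7% of all genes were called. The difference between the tables was not tested.

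In cells without Dux, Pramel7 overexpression gave no called member. Tet3 was at 18.5 and 23.6 CPM in DuxKO_P7OE and at 26.1 and 23.0 CPM in DuxKO, and the groups overlapped (−0.22, interval −0.56 to 0.12). Tet2 was at 162.0 and 160.4 CPM against 150.1 and 152.4 CPM (0.09, −0.41 to 0.59). Tet1 was at 425.3 and 400.3 CPM, above both DuxKO libraries, and gave 0.38 (−0.57 to 1.34). Tdg, at 48.1 and 42.9 CPM, was above both too, with 0.31 (−0.04 to 0.65). Of the 4 members 0 were called by edgeR, with 0 at an unadjusted p under 0.05 and 0 by DESeq2, and 21.4% of all genes were called. In a fit of these groups alone, which leaves out the spread of the WT libraries, Tet1 (0.42, adjusted p 0.0286) and Tdg (0.34, adjusted p 0.0481) were called.

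The response to Pramel7 differed with Dux for Tet3. It was 0.98 with Dux and −0.22 without it, an interaction of −1.20 (SE 0.21, edgeR adjusted p 0.00386) that held in all 20 alternatives, with −1.14 for WT replicates 3 and 4 and −1.15 for replicates 5 and 6. The Tet2 responses were 0.96 and 0.09, and the interaction of −0.87 (interval −1.53 to −0.21) was not called (edgeR adjusted p 0.107), though it was with WT replicates 3 and 4 (−1.21, adjusted p 4.65e-05) and not with replicates 5 and 6 (−0.52, adjusted p 0.059). For Tet1 it was 0.39 with all WT libraries, −0.52 with replicates 3 and 4 (edgeR adjusted p 0.0341) and 1.01 with replicates 5 and 6 (edgeR adjusted p 0.00796). For Tdg it was 0.11, 0.064 with replicates 3 and 4 and 0.25 with replicates 5 and 6. So 0 members were higher and 1 lower, where 7.5% of all genes were called. Pramel7 RNA was itself higher in DuxKO_P7OE than in P7OE, and its part in these interaction values was not tested. DuxKO_P7OE against P7OE called 0 members by edgeR, with 0 at an unadjusted p under 0.05 and 0 by DESeq2, in a comparison that called 0.0298% of all genes. Its Tet2 and Tet3 values were −0.43 (interval −0.94 to 0.07) and −0.30 (−0.64 to 0.03).

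The lists around the members held called genes in this table as well. Of all genes 19.9% were called in P7OE, 9.48% in P7KO and 16.7% in DuxKO, each against WT. In P7OE the writers had 1 higher and 1 lower, Dnmt3a at 1.17 and Dnmt3b at −1.35. The repair genes had 2 higher and 4 lower (median −0.26, against −0.01 over all genes). Neil3 and Xrcc1 rose by 0.85 and 0.42, and Gadd45b, Gadd45a and Ung fell by 1.904, 0.69 and 0.68. The partners had 0 higher and 4 lower, led by Lin28a (−0.81), Capn1 (−0.65) and Ogt (−0.61), the sugar transferase that binds TET proteins. The supply genes had 3 higher and 4 lower, Idh2 at 1.06, Ogdh at 0.73 and Idh1 at 0.45 against D2hgdh at −2.59, Slc23a1 at −1.17 and Sdhb at −0.53. In P7KO the writers had 2 higher and 3 lower, with Dnmt3b at −2.05, Dnmt3a at −1.73, Dnmt3l at −1.27, Dnmt1 at 0.63 and Uhrf1 at 0.40. In DuxKO of this table they had 0 higher and 3 lower, Dnmt3l at −2.84, Dnmt3b at −2.78 and Dnmt3a at −0.40. The primitive endoderm markers summed to 74.8 to 78.0 CPM in P7OE and 68.3 to 73.3 CPM in DuxKO_P7OE, against 6.31 to 8.80 CPM in WT and 7.40 to 9.12 CPM in DuxKO. The formative and primed epiblast markers summed to 102.6 to 143.5 CPM in WT, 71.7 to 74.0 CPM in P7OE, 70.2 to 80.4 CPM in DuxKO_P7OE, 43.2 to 46.3 CPM in P7KO and 37.6 to 40.3 CPM in DuxKO. These sums lean on Dab2, at up to 45.8 CPM in this table, and on Pou3f1, at up to 91.2 CPM. The next highest of their lists were Sox17 (9.87 CPM) and Otx2 (27.4 CPM). The part of these marker shifts in the Tet2 and Tet3 values was not tested.

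Genes whose level followed a member most closely were sought among the 5921 genes whose mean log2 CPM reached 4, by the lower of 2 Pearson correlations, over the 12 genotype and the 10 time course libraries. Libraries of 1 group share their line, so these values describe and are not tested. Tet1, Tet3 and Tdg were not called among days (edgeR adjusted p 0.906, 0.0826 and 0.677). Their time course correlations may thus rest on the spread between libraries. For Tet1 the closest were Deptor, an inhibitor of mTOR (r 0.95 and 0.86), Foxn3 (0.85 and 0.84) and Macf1 (0.80 and 0.76). For Tet2 they were Ipmk (0.84 and 0.87), Sh3d19 (0.83 and 0.84) and Ncoa2 (0.81 and 0.88). Tet3 had Fbxo21 (0.85 and 0.76), Lig3 (0.80 and 0.73), a ligase of base excision repair, and Fnip2 (0.88 and 0.71). Tdg had Bub1b (0.78 and 0.80), Rtcb (0.84 and 0.75) and Srpr (0.77 and 0.73). With Spearman correlation 2 of the 3 genes stayed for Tet1, 1 each for Tet2 and Tet3, and 0 for Tdg. Tet1 and Tet2 had r 0.92 with each other in the genotype table, 0.47 in the Pramel7 table and −0.46 in the time course.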

How the data were processed

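RNA counts of 34 libraries were analysed. Per the labels' protocols, RNA came from a PureLink kit and sequencing libraries from a stranded Collibri kit. The values deposited by the authors are unnormalized counts of reads for each gene symbol. The submitters' processing notes name Trim Galore, HISAT2, featureCounts, Bismark and mm10, and versions, the annotation and the strand setting are not given in the sources used here, so reads of antisense or overlapping genes cannot be told apart. Another table, of 8 of the genotype libraries, had 442208 of 442208 values in common with the first and was set aside. The labels also describe 6 bisulfite libraries, which were not analysed here.

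Each table was fitted once with all its libraries and group as the only term, by edgeR 4.0.16 in R 4.3.3 (quasi-likelihood F test, TMM, filterByExpr, Benjamini-Hochberg over all tested genes, called under 0.05). A prior count of 0.125 entered the log2 fold changes and SE is the fit's standard error. Alternatives were DESeq2 1.42.0, other scalings and filters, a prior count of 2, other samples, a replicate block and each library left out. The prior count enters only the log2 fold change and not the p, so a call could not be lost under that alternative. The edgeR script was tested on simulated data. Members, lists and alternatives were chosen with earlier results of these data known. Of each list, up to 3 called genes per direction with the largest change were named. Libraries of 1 group differed by a chi-square of 12.9 to 147 per gene, so no pair was a copy. Counting error sets only part of the spread, as reads carry no molecular identifiers. Promoter windows came from RefSeq (GRCm38.p6), which matched 4 of 4 members. No column was left without a sample (0).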

Additional observations from a re-analysis of the deposited data

Results flagged for a closer look

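In the 4 WT libraries of the Pramel7 table, Tdg was at 48.77 CPM in replicate 6 and at 35.71 to 37.66 CPM in the others. Its gap to the nearest library was 0.851 of the range of the group, above the critical value of Dixon's test for 4 samples. Such a test passes by chance in about 1 in 20 groups, and the 4 members were checked in this group alone. The effect of Ctbp loss differed with Dux by 1.21 on the log2 scale for Tet1, by 0.63 for Tet2 and by −0.41 for Tdg, each called by edgeR's interaction test. The effect of Pramel7 overexpression differed with Dux by −1.20 for Tet3 in the same kind of test. Pramel7 RNA was higher in DuxKO_P7OE than in P7OE, and Tet3 stood above WT in DuxKO of that table. The part of either in the −1.20 was not tested.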

How the results depend on the processing

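Of 1136 values of members under alternatives, 1029 kept their direction and side of the threshold and 41 lost a call. A further 32 gained a call with the same sign and 34 changed sign. Of these 34, 0 were called in the main fit, but some were called with the new sign. Among them were Tet1 in P7OE (0.91) and in the Pramel7 interaction (−0.52), both with WT replicates 3 and 4. The 1136 include the fits with a prior count of 2, which have the p of the main fit. The cause of these changes was not tested, save that leaving out a library leaves fewer samples, and a lone library is then assumed to vary like the other groups. Changes of sign came on total counts (Tet2 in CtbpDKO 0.016, Tet1 on day 3 −0.052, Tet1 and Tdg from day 3 to 9 0.096 and 0.080, Tet1 and Tet3 from day 12 to 18 −0.064 and −0.069), with upper quartile factors (Tet1 in P7OE 0.0021, on day 3 −0.0054), with at least 50 counts in 2 libraries (Tet1 in P7OE 0.022), with no filter (Tdg in DuxKO_P7OE against P7OE −0.014) and with only the groups compared (Tet1 on day 3 −0.00059). They also came with WT replicates 3 and 4 (Tet1 in P7OE 0.91, in DuxKO beside Pramel7 lines 0.24, in the Pramel7 interaction −0.52) and with WT replicates 5 and 6 (Tet1 in P7KO −0.34). With each library left out in turn, values ran from −0.094 to 0.074 for Tdg in DuxKO_P7OE against P7OE, −0.16 to 0.094 for Tdg from day 9 to 12, −0.16 to 0.028 for Tdg from day 3 to 9, −0.25 to 0.38 for Tet1 in P7OE, −0.14 to 0.016 for Tet1 from day 9 to 12, −0.046 to 0.11 for Tet1 from day 12 to 18, −0.028 to 0.037 for Tet1 on day 3, −0.10 to 0.042 for Tet2 and −0.022 to 0.18 for Tet3 in CtbpDKO, −0.17 to 0.15 for Tet3 from day 0 to 18 and −0.061 to 0.11 for Tet3 from day 12 to 18.

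Members called moved from 0 to 1 in Dppa2KO (upper quartile, no filter, 50 counts), and from 2 to 1 in DKO_Dppa2_KO against Dppa2KO (the same settings) or 0 (only the groups compared). On total counts Ctbp_DuxTKO against CtbpDKO went from 1 to 0, the Dux interaction from 3 to 1, day 9 against 3 from 0 to 1 and day 12 against 9 from 1 to 0. With no filter DuxKO and the interaction of the Pramel7 table went from 1 to 2, day 9 against 3 from 0 to 2 and day 18 against 0 from 0 to 1 (1 also with 50 counts). With only the groups compared Ctbp_DuxTKO against CtbpDKO had 0 and DuxKO_P7OE against DuxKO 2. With WT replicates 3 and 4 the counts were 2 in DuxKO, 2 in P7KO and 3 in the interaction, and with replicates 5 and 6 they were 2 in DuxKO and 2 in the interaction. By DESeq2 day 9 against 3 had 2 and day 18 against 0 had 1. Leaving out libraries gave 0 for Ctbp_DuxTKO against CtbpDKO and day 12 against 9, 0 to 2 for Dppa2KO and DKO_Dppa2_KO against Dppa2KO, 1 to 3 for DKO_Dppa2_KO against CtbpDKO, 0 to 1 for the Dppa2 interaction, P7KO, day 3 and day 18 against 0, and 1 to 2 for DuxKO and the interaction of the Pramel7 table.

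No pairing by replicate number was seen. Deviations of libraries with the same number correlated at −0.098 to 0.065 over 30 pairs (genotype), −0.024 to 0.035 over 8 (Pramel7) and −0.080 to 0.092 over 20 (time course). Between groups of 2 libraries both replicate numbers give the same value, so such pairs are not separate checks. WT deviations of the Pramel7 table were taken from the mean of all its WT libraries, which stood apart, so the check says little for WT there. With the replicate number as a block, members called went to 1 in DKO_Dppa2_KO against Dppa2KO (Tet1 lost its call, at −0.39). They went to 2 in DuxKO of the Pramel7 table, where Tet2 gained a call and Tet1 changed sign (0.26) without being called. In day 12 against 9 they went to 0.

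Genes called over the whole table, with the lowest and highest count over the alternatives in processing or in the groups and WT libraries used, and over those that left 1 library out, were for CtbpDKO 5522 (4391 to 5905, 3543 to 4048), DuxKO 3707 (2441 to 4223, 1825 to 2046), Ctbp_DuxTKO against CtbpDKO 1727 (977 to 2477, 558 to 1250), Dppa2KO 3467 (2189 to 4059, 1616 to 2379), DKO_Dppa2_KO against CtbpDKO 3268 (2829 to 3828, 1272 to 2058), the Dux interaction 4124 (2624 to 4782, 2638 to 3710), the Dppa2 interaction 1745 (1193 to 2551, 773 to 1310), DuxKO beside the Pramel7 lines 3361 (2104 to 4984, 1208 to 3533), P7OE 4003 (2695 to 6124, 1477 to 4818), DuxKO_P7OE against DuxKO 4320 (3144 to 5400, 1925 to 2675) and against P7OE 6 (5 to 350, 2 to 11), P7KO 1911 (1073 to 4693, 518 to 2426), the Pramel7 interaction 1512 (957 to 3184, 651 to 1939), day 3 against 0 1029 (747 to 1634, 340 to 607), day 9 against 3 230 (155 to 789, 51 to 101), day 12 against 9 791 (623 to 1361, 210 to 303), day 18 against 12 169 (60 to 652, 38 to 213) and day 18 against 0 106 (40 to 566, 27 to 233).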
